A study of Saccharomyces cerevisiae with 20 samples.

Results

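The mitochondrial ribosomal protein genes of budding yeast, Saccharomyces cerevisiae, were followed across 5 strains. The members were 54 of the 7127 genes in the deposited table, taken from the MRPL, MRPS and MRP series together with MNP1. MRP10 and MRP35 were not in this list and are read below with the further mitochondrial ribosomal proteins. By the RefSeq product names 38 encode proteins of the large (54S) subunit and 16 proteins of the small (37S) subunit of the mitochondrial ribosome, and each of the 54 product names gives a mitochondrial ribosomal protein. All 54 passed the filter on low counts, so none was lost before testing, and the lowest count of any member in any library was 10.

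Messenger RNA was profiled by Smart-seq2, which amplifies whole cDNA by PCR, in 20 libraries with 4 per strain. Every culture was untreated and was harvested in early exponential growth in synthetic complete medium with glucose. BY4741 is labelled MATa with his3Delta1, leu2Delta0, met15Delta0 and ura3Delta0. CEN.PK2 is labelled MATa with his3Delta1, leu2-3_112, ura3-52 and trp1-289, and it carries MAL2-8c and SUC2. RM11-1a is labelled MATa with leu2Delta0, ura3Delta0 and a disrupted mating-type switching gene, HO::kanMX. W303 is labelled MATa with a leu2 allele that joins the mutations leu2-3 and leu2-112, and with trp1-1, can1-100, ura3-1 and his3-11,15. D273-10B is labelled MATAlpha mal and has no auxotrophic allele in its label, so its mating type and its nutritional genotype cannot be told apart from its strain background. The same holds for alleles labelled in a single strain, such as met15Delta0 in BY4741, HO::kanMX in RM11-1a and can1-100 in W303. Total counts ran from 1311322 to 22979469 per library. The disrupted HO gene had 1 or 2 counts in RM11-1a replicates 1, 3 and 4. The library labelled RM11-1a replicate 2 had 408 HO counts, against its genotype label. Tests and shares that involve RM11-1a use all 4 libraries, and values without this library are given with the shares and with each pair of strains. The test for any difference, the length correction and the other alternatives are not given separately without it. The labels number the libraries, and the first digits of the number (66, 69 or 74) are used below as a library series, although the labels do not say what the numbers stand for.

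The mitochondrial ribosome translates the few messages encoded by mitochondrial DNA, which in yeast are mainly core subunits of the respiratory chain and the ATP synthase. Nearly all of its proteins are encoded in the nucleus, made in the cytosol and imported, while its RNAs and the single protein Var1 come from mitochondrial DNA. Many of the nuclear messages carry a short element after the stop codon that is recognised by Puf3, an RNA-binding protein known to speed the decay of such messages in glucose-grown yeast.

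The letters of that element, TGTANATA, were found on the gene strand in the 200 bases after the stop codon of all 54 members. Of 5748 nuclear protein-coding genes tested, 14.5% held the same letters in the same window. On the opposite strand the shares were 16.7% of the members and 13.4% of all the genes. The sites of the 12 members with the smallest p-value for any difference among the strains are shown because the results turn on these genes. MRPL35, the member with the smallest difference between D273-10B and BY4741 when gene length is not corrected for, is added for contrast. With such a correction MRPS18 had the smallest. Each is read 5′ to 3′ on the gene strand from the RefSeq R64 genome, and capitals mark the element.
MRPL15 (chrXII:760296-760315, plus strand): tttatcTGTAAATAgtgatc
MNP1 (chrVII:375744-375763, plus strand): atatcaTGTAAATAtgttta
MRPL16 (chrII:146905-146924, plus strand): tatacaTGTATATAactatt
MRPL31 (chrXI:185230-185249, minus strand): ttcatcTGTATATAgtttaa
MRPS17 (chrXIII:636222-636241, minus strand): acactcTGTAAATAtataca
MRP2 (chrXVI:876219-876238, minus strand): cgcactTGTAAATAaataca
MRPL32 (chrIII:119211-119230, plus strand): taagccTGTATATAgaaact
MRP21 (chrII:49406-49425, plus strand): cgtcttTGTAAATAggtaat
MRPL11 (chrIV:99272-99291, plus strand): caatcaTGTACATAcatcat
MRPL17 (chrXIV:171339-171358, minus strand): atcacaTGTAAATAtcatta
MRPL8 (chrX:315719-315738, minus strand): ttccctTGTAAATAtataga
MRPL24 (chrXIII:650861-650880, plus strand): ttccccTGTATATAaaaaag
MRPL35 (chrIV:1111715-1111734, plus strand): gtatccTGTACATAtaaaat
MRPL35 thus held the letters of the element in this genome as well. In members with more than 1 site, the site shown and the values that follow are those of the site nearest the stop codon. The element lay 8 to 139 bases after the stop codon, with a median of 51.5 bases. Its free position was A in 29 members, T in 15, C in 9 and G in 1. A C stood 1 or 2 bases before the element in 46 members, and 11 members held 2 or more sites. In the promoter window, from 250 bases before to 50 after the start codon, AATTTT occurred on either strand in 44.4% of members and 52.3% of all the genes. CCAAT, the letters bound by the Hap complex, occurred on either strand in 40.7% of members and 43.6% of all the genes. A match of letters is a description of the sequence and does not show binding.

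**Figure D1:**
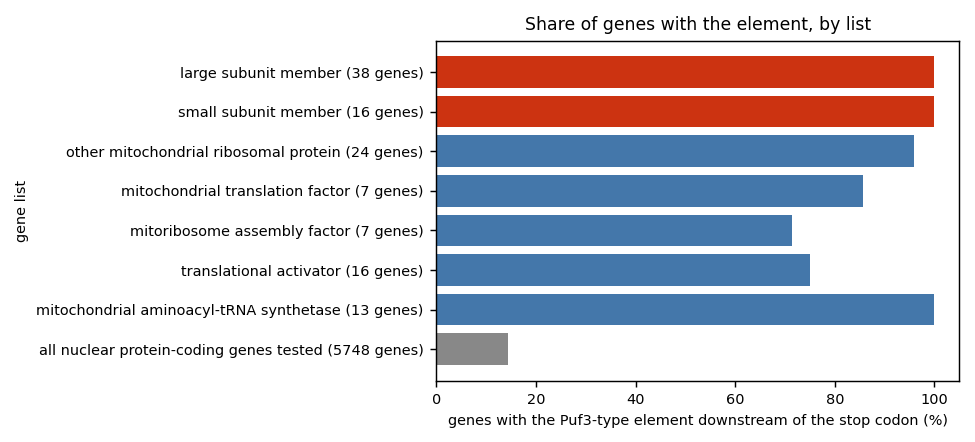
Share of genes (x axis, percent) in each gene list (y axis, number of genes in brackets) with TGTANATA on the gene strand in the 200 bases after the stop codon. The bars for the large and small subunit members reach 100%, those of the other mitochondrial translation lists lie between 71.4% and 100%, and the grey bar for all nuclear protein-coding genes tested ends at 14.5%.

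The messages of the mitochondrial ribosomal proteins were lowest in BY4741 and highest in D273-10B. By strain mean, BY4741 was the lowest strain for 46 of the 54 members and D273-10B the highest for 40. Together the 54 members took 0.390% to 0.516% of the raw, unscaled counts in the BY4741 libraries, with a mean of 0.459% ± 0.0549 (SD, n = 4). In D273-10B they took 0.683% to 0.881%, with a mean of 0.772% ± 0.0911 (SD, n = 4). The D273-10B and BY4741 libraries did not overlap. The other strains lay between these means, at 0.606% ± 0.0534 in CEN.PK2, 0.612% ± 0.0517 in W303 and 0.718% ± 0.109 in RM11-1a (SD, n = 4 each). With the library labelled RM11-1a replicate 2 left out, the other 3 took 0.675% to 0.867%, with a mean of 0.755% ± 0.10 (SD, n = 3), which lay above CEN.PK2 and W303 without overlap. The ranges of RM11-1a (0.610% to 0.867% with that library) and D273-10B overlapped in both cases, and so did those of CEN.PK2 (0.543% to 0.650%) and W303 (0.536% to 0.647%). These are shares of the RNA of a culture, so a change in the number of cells that express a gene and a change in RNA per cell cannot be told apart.

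The test for any difference among the 5 strains called 26 of the 54 members (48.1%; 28.4% of all genes tested) at an adjusted p under 0.05 by edgeR's quasi-likelihood test with Benjamini-Hochberg adjustment over 6119 genes. Of the 26, 19 belong to the large and 7 to the small subunit. At an unadjusted p under 0.05 there were 38 members, where 43.9% of all genes tested were below that p. The count fell to 14 without BY4741 replicate 1 and to 14 without BY4741 replicate 4. It was 17 without BY4741 replicate 2 and 15 without W303 replicate 3. Without D273-10B replicates 3 and 4 in turn it was 17 and 16, and without D273-10B replicate 1 it was 42.

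**Figure D2:**
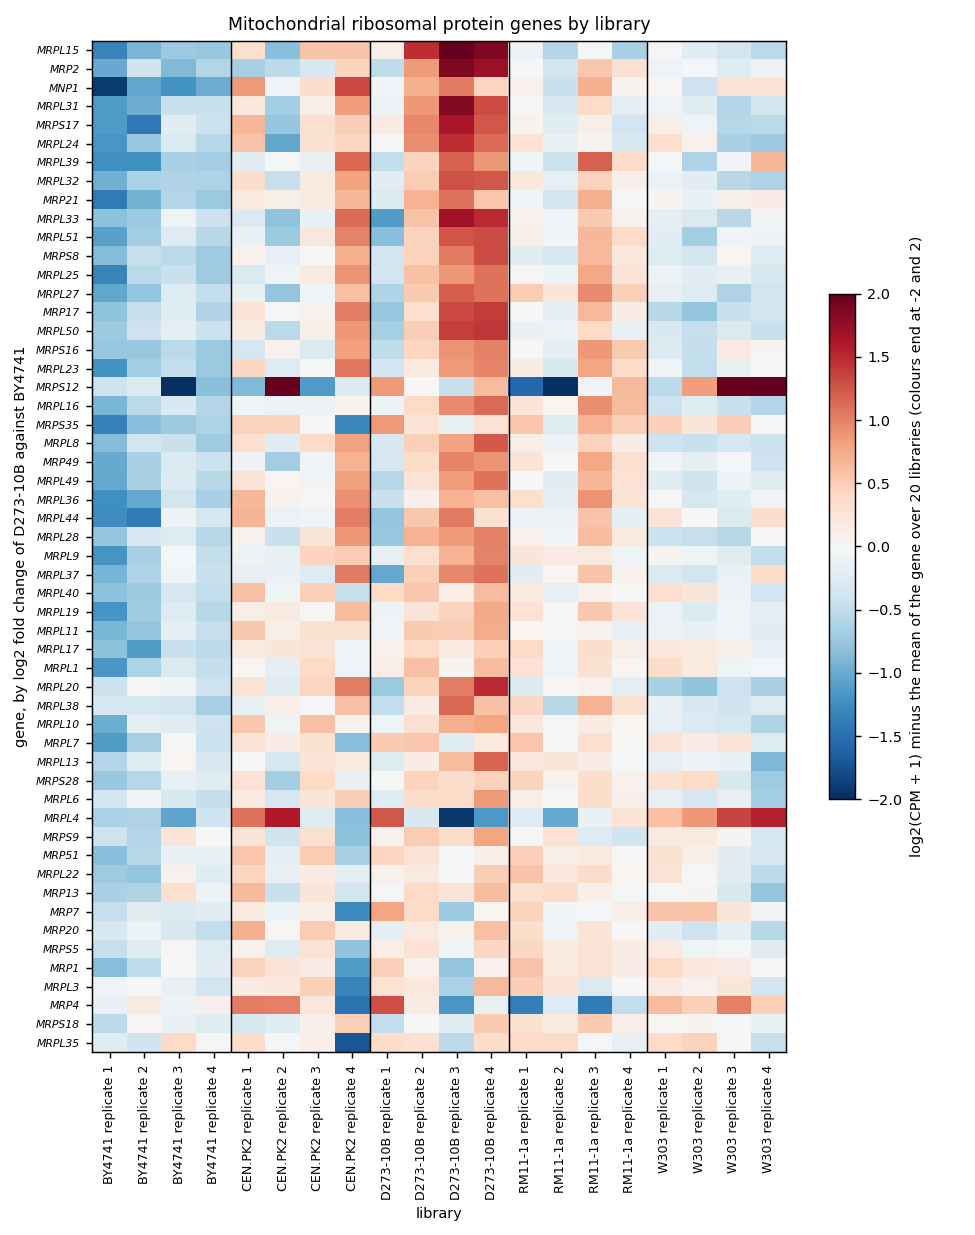
Level of each of the 54 members (y axis) in each of the 20 libraries (x axis, 4 per strain), coloured by log2(CPM + 1) minus the mean of the gene over the 20 libraries, with colours ending at -2 and 2. The 4 BY4741 columns are mostly blue and D273-10B replicates 2 to 4 mostly red, while D273-10B replicate 1 is paler than these 3, and MRPS12, MRPL4 and MRP4 follow patterns of their own.

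In BY4741 and in 2 of the D273-10B libraries at least 47 of the 54 members lay on one side of their own means. RM11-1a replicate 3 came close, with 46 above (85.2%, against 45.7% of all genes tested), and W303 replicate 4 had 43 below. Other libraries were more divided. The median member stood 0.87 below its own mean over the 20 libraries in BY4741 replicate 1 on the log2(CPM + 1) scale, where 0 of 54 members were above their means, against 51.1% of all genes tested. In D273-10B replicates 2, 3 and 4 the median member was 0.42, 0.76 and 0.79 above, with 51, 41 and 52 members above their means, where 51%, 49.1% and 47.3% of all genes were. The members were divided in W303 replicates 1 and 2, with 23 and 19 above, in CEN.PK2 replicate 4, with 36, and in the library labelled RM11-1a replicate 2, with 17. D273-10B replicate 1 stood apart from the other libraries of its strain, with a median of -0.14 and 20 members above. The levels are scaled by TMM, where a larger factor gives lower CPM. The factor was 1.26 in D273-10B replicate 1 and 0.88, 0.78 and 0.76 in replicates 2 to 4. The members' raw shares in replicates 1 to 4 were 0.683%, 0.712%, 0.811% and 0.881%. CEN.PK2 replicate 4, with a factor of 0.67, had the lowest raw share of its strain (0.543%) but its highest scaled sum (8169 CPM). The part of scaling was not tested. Gene length moved with the difference between the D273-10B libraries as well. The slope of a library's log2 level per doubling of gene length was 0.43 in D273-10B replicate 1, the highest of the 20 libraries, and 0.06, -0.13 and -0.23 in replicates 2 to 4. The part of length in the members' levels was not tested, but counts and medians from fits with each library's length trend taken out are given for the comparisons below.

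D273-10B, a strain used in work on mitochondria, had more message than BY4741 for 32 members that passed the test. All 54 log2 fold changes were above 0, against 56.3% of all genes tested, and the 32 rose (10.1% of all genes tested were called higher) by edgeR's quasi-likelihood test with Benjamini-Hochberg adjustment. None fell. Of the 32, 25 encode large and 7 small subunit proteins, and 30 of them rose at least 2-fold. The median log2 fold change of the members was 1.07, against 0.13 over all genes tested, and the range was 0.17 for MRPL35 to 2.52 for MRPL15. The 4 libraries of D273-10B lay wholly above the 4 of BY4741 for 23 members, where 6.91% of all genes did so. The count of calls depended on single libraries, being 19 without BY4741 replicate 1, 21 without BY4741 replicate 2, 18 without D273-10B replicate 3, 21 without D273-10B replicate 4 and 39 without D273-10B replicate 1. It was 13 with only these 2 strains in the fit, and among libraries numbered from 69 it was 40 with a median of 1.51. In some of these fits uncalled members were below 0. They were MRPL4 and MRP4 without D273-10B replicate 1 and among libraries numbered from 69, and MRPS18 without D273-10B replicate 4.

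Shorter members had larger fold changes in this comparison. Over the 54 members, coding length (213 to 1185 bases, median 676.5) and the log2 fold change of D273-10B against BY4741 had a Spearman coefficient of -0.67, a description over genes of the same libraries. The same coefficient was -0.47 over 2619 other genes in the members' length range, whose median log2 fold change was 0.12 and of which 7.71% were called higher. With each library's length trend taken out, the members' coefficient was 0.31, all 54 fold changes stayed above 0, and 43 members were called higher with a median of 0.86. All genes tested then had a median of 0.05, and 10.8% were called higher. Of the 32 members called without the correction, 31 were called with it.

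**Figure D3:**
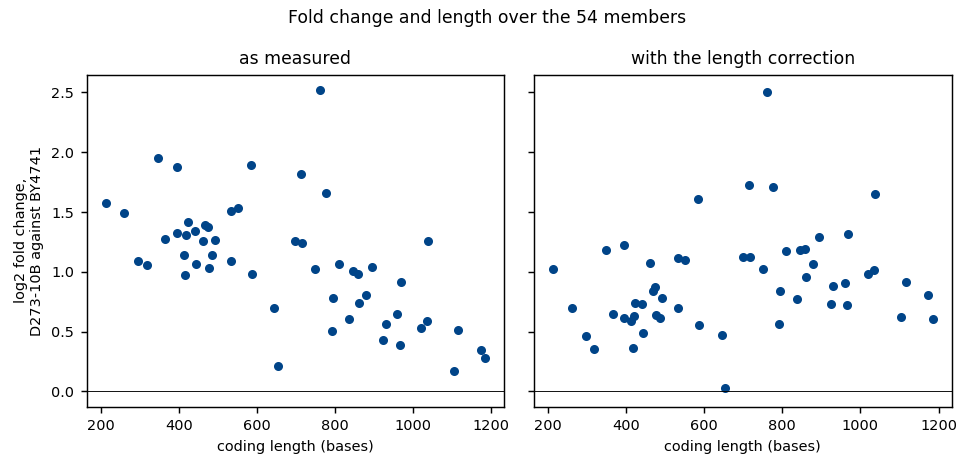
Log2 fold change of D273-10B against BY4741 (y axis) by coding length in bases (x axis) for the 54 members, as measured (left) and with each library's length trend taken out (right). The left panel falls from short to long members and the right panel does not, and in both every point lies above 0.

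MRPL15 encodes mL57, a protein of the mitochondrial large subunit with the fold of an RNase III-type enzyme, and it had the smallest p-value of all members (YLR312W-A, chromosome XII, 759480 to 760241, plus strand). Its message stood at 45.6, 61.5, 69.9 and 68.5 CPM (counts of a gene relative to all counts of its library, after TMM scaling) in the BY4741 libraries and at 127, 325, 532 and 429 CPM in those of D273-10B. CEN.PK2 gave 146, 64.5, 173 and 174 CPM, RM11-1a 109.1, 76.9, 115 and 74.1 CPM and W303 114, 99.5, 88.7 and 79.5 CPM. Every D273-10B library was above every library of BY4741, RM11-1a and W303, whereas CEN.PK2 overlapped with D273-10B. The log2 fold change against BY4741 was 2.52 (SE 0.385, edgeR adjusted p 0.000265), a 5.75-fold rise. MRPL15 also fell in RM11-1a and in W303 against D273-10B, by 1.91 (SE 0.376, edgeR adjusted p 0.00191) and 1.89 (SE 0.376, edgeR adjusted p 0.00369) on the log2 scale. These 3 calls were kept in every alternative that was run. The rise against CEN.PK2, 1.34 (SE 0.370, edgeR adjusted p 0.037), was lost in 9 of 31 alternatives, with adjusted p from 0.00269 to 0.273. The product of MRPL3, mL44, pairs with mL57 in the ribosome, and for MRPL3 the log2 fold change of D273-10B against BY4741 was 0.35 (edgeR adjusted p 0.517). MRPL3 was called with the length correction, at 0.81 (edgeR adjusted p 0.0245). With the library labelled RM11-1a replicate 2 left out, the fall of MRPL15 in RM11-1a against D273-10B had a log2 value of -1.83 (edgeR adjusted p 0.00475).

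MNP1 encodes bL12m, the mitochondrial form of the stalk protein that contacts translation factors (YGL068W, chromosome VII, 375087 to 375671, plus strand). It was the sole member called higher than BY4741 in all 4 other strains. BY4741 had 8.68, 16.8, 15 and 17.5 CPM, CEN.PK2 65, 33.8, 45.6 and 90.1 CPM and D273-10B 34.1, 58.9, 74.5 and 48.3 CPM. RM11-1a had 37.8, 25.8, 58.8 and 37.1 CPM and W303 36.2, 26.5, 43.7 and 43.4 CPM. No library of the 4 other strains was as low as the highest BY4741 library, and the 4 other strains overlapped one another. The log2 fold change against BY4741 was 2.02 in CEN.PK2 (SE 0.353, edgeR adjusted p 0.00164) and 1.89 in D273-10B (SE 0.352, edgeR adjusted p 0.00169). It was 1.46 in RM11-1a (SE 0.348, edgeR adjusted p 0.0175) and 1.36 in W303 (SE 0.349, edgeR adjusted p 0.0447). The W303 call was lost in 17 of 32 alternatives, with adjusted p from 0.000946 to 0.149, and the RM11-1a call in 5 of 31, with adjusted p from 0.00204 to 0.379. The CEN.PK2 call was lost among libraries numbered from 69, with an adjusted p of 0.109. The stalk base protein uL10m is encoded by MRPL11 (YDL202W, chromosome IV, 98475 to 99224, plus strand). MRPL11 had 35, 38.6, 59 and 48.4 CPM in BY4741, 98.4, 74.1, 83.3 and 83.1 in CEN.PK2 and 64.3, 97.2, 95 and 113 in D273-10B. In RM11-1a it had 68.7, 65.6, 70.6 and 59.6 CPM and in W303 62.5, 60.3, 63.9 and 57.4 CPM. CEN.PK2 and D273-10B both lay wholly above BY4741, and MRPL11 rose by 0.90 (SE 0.229, edgeR adjusted p 0.0226) and 1.03 (SE 0.229, edgeR adjusted p 0.00623) on the log2 scale. The first of these was lost in 6 of 31 alternatives, among them the fits without BY4741 replicates 1, 2 or 4 or CEN.PK2 replicate 1 (adjusted p up to 0.159), and the second with only these 2 strains in the fit (0.0699).

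Large subunit members with a bacterial counterpart included MRPL16, MRPL32, MRPL24, MRPL8 and MRPL36, all of which rose in D273-10B against BY4741. MRPL16 encodes uL16m (YBL038W, chromosome II, 146187 to 146885, plus strand). It had 44, 56.9, 67 and 54.9 CPM in BY4741, 77.9, 110, 161 and 184 CPM in D273-10B and 100, 85.3, 160 and 130 CPM in RM11-1a. CEN.PK2 had 80.2, 76.6, 78 and 87.6 CPM and W303 62.6, 70, 61.2 and 55.3 CPM. D273-10B and RM11-1a both lay above BY4741 and W303 without overlap. MRPL16 rose in D273-10B by 1.26 (SE 0.273, edgeR adjusted p 0.00518) and in RM11-1a by 1.09 (SE 0.272, edgeR adjusted p 0.0226) against BY4741. The RM11-1a call was lost in 9 of 31 alternatives, with adjusted p from 0.00291 to 0.43. Among these were the library series block, the libraries numbered from 66, and the fits without BY4741 replicates 1, 2 or 4 or RM11-1a replicates 3 or 4. In W303 it fell by 1.10 against D273-10B (SE 0.272, edgeR adjusted p 0.0155) and by 0.93 against RM11-1a (SE 0.271, edgeR adjusted p 0.031), the former lost in 3 of 31 alternatives and the latter in 11 of 31, among them the length correction (adjusted p 0.0789).

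MRPL32 encodes bL32m, whose maturation by a protease of the inner membrane is a known step in assembly of the yeast mitochondrial ribosome (YCR003W, chromosome III, 118620 to 119171, plus strand). BY4741 had 44.3, 55.8, 57.5 and 56.7 CPM and D273-10B 75.1, 125, 213 and 208 CPM. CEN.PK2 had 112, 63.2, 100 and 154 CPM, RM11-1a 101, 77.8, 121 and 93.8 CPM and W303 80.1, 74.5, 59 and 56.9 CPM. The lowest D273-10B library was above the highest of BY4741, and the rise was 1.53 on the log2 scale (SE 0.320, edgeR adjusted p 0.00393). MRPL24 encodes bL28m (YMR193W, chromosome XIII, 650036 to 650812, plus strand). Its levels were 40.3, 53.8, 75.2 and 61.6 CPM in BY4741, 92.7, 176, 258 and 203 CPM in D273-10B and 137, 44.1, 114 and 124 CPM in CEN.PK2. RM11-1a had 112, 83.3, 95 and 73.9 CPM and W303 116, 98, 58.5 and 55 CPM. D273-10B lay above BY4741 without overlap, a rise of 1.66 (SE 0.369, edgeR adjusted p 0.00612), while CEN.PK2 replicate 2 was as low as the BY4741 libraries. MRPL8 encodes bL17m (YJL063C, chromosome X, 315759 to 316475, minus strand). It had 150, 212, 202 and 167 CPM in BY4741, 219, 381, 479 and 646 CPM in D273-10B and 343, 231, 361 and 479 CPM in CEN.PK2. RM11-1a had 297, 257, 373 and 305 CPM and W303 205, 201, 216 and 203 CPM. The rise of MRPL8 in D273-10B was 1.24 (SE 0.303, edgeR adjusted p 0.0103), lost with only these 2 strains in the fit (0.0619), and all 4 W303 libraries were below the D273-10B libraries.

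**Figure D4:**
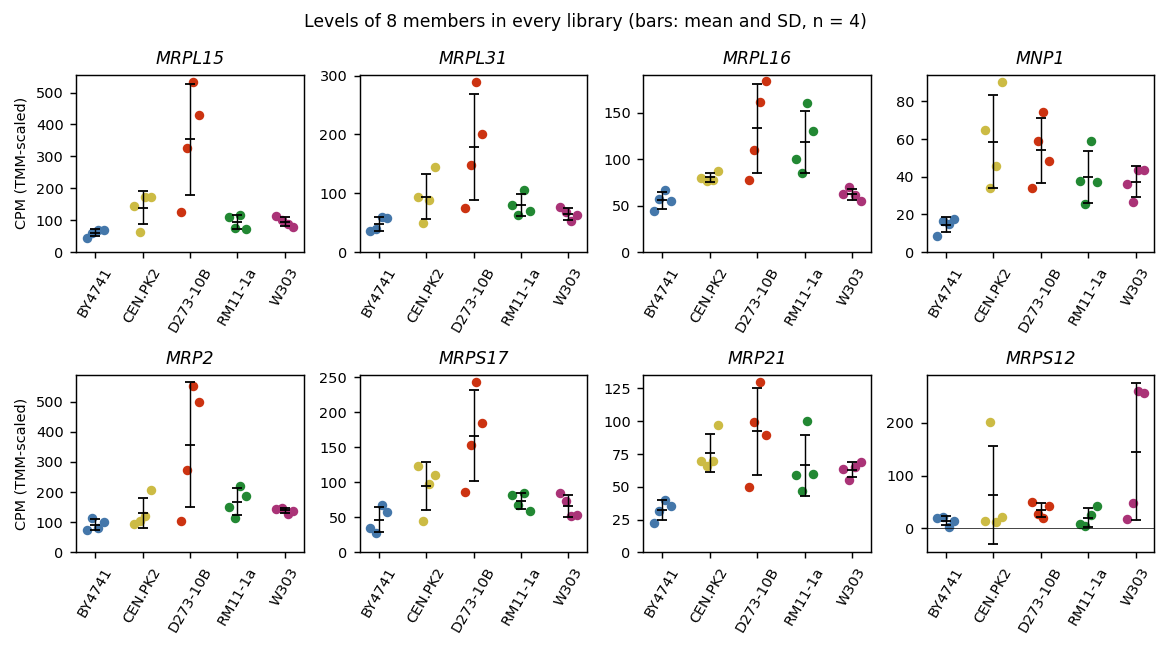
Level in CPM scaled by TMM (y axes, which differ between panels) of 8 members in each library (points) of the 5 strains (x axes), with the mean and SD of the 4 libraries of a strain as bars. D273-10B holds the highest points of MRPL15, MRPL31, MRPL16, MRP2, MRPS17 and MRP21, CEN.PK2 that of MNP1, and MRPS12 is high in 3 libraries only.

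MRPL36 encodes bL31m (YBR122C, chromosome II, 483970 to 484503, minus strand). BY4741 had 73.5, 84.8, 135 and 111 CPM, RM11-1a 218, 153, 324 and 211 CPM and CEN.PK2 276, 183, 176 and 328 CPM. D273-10B had 127, 187, 283 and 265 CPM and W303 170, 137, 147 and 168 CPM. CEN.PK2 and RM11-1a lay wholly above BY4741, and D273-10B replicate 1 overlapped with it. MRPL36 rose by 1.25 in CEN.PK2 (SE 0.318, edgeR adjusted p 0.0228), by 1.09 in D273-10B (SE 0.317, edgeR adjusted p 0.0263) and by 1.17 in RM11-1a (SE 0.318, edgeR adjusted p 0.0336). The RM11-1a call was lost in 11 of 31 alternatives, with adjusted p from 0.00692 to 0.562. The CEN.PK2 call was lost in 7 of 31 (up to 0.158) and the D273-10B call in 6 of 31 (up to 0.0897), and leaving out BY4741 replicates 1, 2 or 4 ended all 3 calls.

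Mitochondria-specific proteins of the large subunit, which have no bacterial counterpart, included MRPL31, MRPL17, MRPL27 and MRPL20. MRPL31 encodes mL60 (YKL138C, chromosome XI, 185286 to 185681, minus strand). BY4741 had 36, 40.1, 59 and 58.6 CPM and D273-10B 75, 148, 289 and 201 CPM. CEN.PK2 had 94.4, 49.8, 88.7 and 144 CPM, RM11-1a 80.9, 64, 105 and 70.7 CPM and W303 76.6, 67.8, 53.6 and 62.4 CPM. D273-10B replicate 1 was within the range of the RM11-1a and W303 libraries, and replicates 2 to 4 were above all of them. The rise in D273-10B against BY4741 was 1.88 (SE 0.366, edgeR adjusted p 0.00248), and it was kept in every alternative that was run. MRPL31 fell by 1.16 in RM11-1a (SE 0.358, edgeR adjusted p 0.0305) and by 1.45 in W303 (SE 0.361, edgeR adjusted p 0.0159) against D273-10B. The RM11-1a call was lost without the library labelled RM11-1a replicate 2 (-1.06, edgeR adjusted p 0.0714), and in 6 of 30 alternatives in all, among them the fits without RM11-1a replicates 1 or 4 or D273-10B replicates 3 or 4. The W303 call was lost in 4 of 31, among them the fits without D273-10B replicate 3 or W303 replicate 3 (up to 0.0809). MRPL17 encodes mL46 (YNL252C, chromosome XIV, 171441 to 172286, minus strand). BY4741 had 36.9, 29.8, 48 and 45.6 CPM, D273-10B 70, 86, 75 and 91.7 CPM and RM11-1a 87.1, 62.2, 84.2 and 71.2 CPM. CEN.PK2 had 74.7, 78.5, 80.8 and 62.5 CPM and W303 76.2, 75.8, 72 and 58.6 CPM. All 16 libraries of the other strains were above the 4 of BY4741. MRPL17 rose by 0.88 in CEN.PK2 (SE 0.222, edgeR adjusted p 0.0222), 1.01 in D273-10B (SE 0.223, edgeR adjusted p 0.00584) and 0.92 in RM11-1a (SE 0.222, edgeR adjusted p 0.0183). The RM11-1a call was lost in 7 of 31 alternatives, with adjusted p from 0.000246 to 0.413, among them the library series block and the fits without BY4741 replicates 1 or 2 or RM11-1a replicates 1 or 3. The CEN.PK2 call was lost in 4 of 31, again including the fits without BY4741 replicates 1 or 2 (up to 0.118), and the D273-10B call with only these 2 strains in the fit (0.061).

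MRPL27 encodes mL41 (YBR282W, chromosome II, 768240 to 768680, plus strand). It had 32.9, 39.3, 57.3 and 48.4 CPM in BY4741, 98.2, 81, 133 and 96.3 CPM in RM11-1a and 44.8, 98.8, 160 and 147 CPM in D273-10B. CEN.PK2 had 62, 39.6, 64.4 and 105 CPM and W303 61.3, 57.2, 44.6 and 52.4 CPM. RM11-1a lay above BY4741 without overlap and D273-10B replicate 1 did not. The rise was 1.34 in D273-10B (SE 0.350, edgeR adjusted p 0.0152) and 1.19 in RM11-1a (SE 0.349, edgeR adjusted p 0.049), and the RM11-1a call was lost in 19 of 31 alternatives, with adjusted p from 0.0161 to 0.333. The D273-10B call was lost in 2 of 31, among them the fit without D273-10B replicate 3 (up to 0.0753). MRPL20 encodes mL58 (YKR085C, chromosome XI, 599094 to 599681, minus strand). W303 had 132, 118, 156 and 132 CPM and D273-10B 124, 284, 425 and 585 CPM. BY4741 had 153, 210, 200 and 156 CPM, CEN.PK2 252, 175, 281 and 424 CPM and RM11-1a 171, 214, 221 and 182 CPM. D273-10B replicate 1 was in the range of W303 and replicates 2 to 4 were above it. MRPL20 fell by 1.40 in W303 against D273-10B (SE 0.363, edgeR adjusted p 0.0196), lost in 6 of 31 alternatives.

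Small subunit members were led by MRP2, MRPS17 and MRP21, the counterparts of bacterial S14, S17 and S21. MRP2 (uS14m; YPR166C, chromosome XVI, 876282 to 876629, minus strand) had 74.1, 114, 80.8 and 99.5 CPM in BY4741 and 105, 273.3, 552 and 498 CPM in D273-10B. CEN.PK2 had 94.9, 104, 120 and 206 CPM, RM11-1a 151, 115, 220 and 186 CPM and W303 144, 148, 126 and 139 CPM. D273-10B replicates 2 to 4 were above all libraries of the other strains, and D273-10B replicate 1 lay within the BY4741 range. MRP2 rose in D273-10B by 1.96 against BY4741 (SE 0.40, edgeR adjusted p 0.00341) and by 1.44 against CEN.PK2 (SE 0.393, edgeR adjusted p 0.0344). The call against CEN.PK2 was lost in 6 of 31 alternatives, among them the fits without any 1 of CEN.PK2 replicates 1 to 3 or D273-10B replicates 3 and 4 (adjusted p up to 0.259). In W303 it fell by 1.36 against D273-10B (SE 0.392, edgeR adjusted p 0.0315). That call did not survive 12 of 31 alternatives, the length correction among them, with adjusted p from 0.00129 to 0.139.

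MRPS17 encodes uS17m (YMR188C, chromosome XIII, 636291 to 637004, minus strand). BY4741 had 35, 28.3, 67.5 and 57.4 CPM and D273-10B 87.1, 153, 243 and 185 CPM. CEN.PK2 had 124, 45.3, 98.1 and 110 CPM, RM11-1a 81.6, 67.3, 84.7 and 59.6 CPM and W303 85, 73.8, 52.2 and 53.4 CPM. Every D273-10B library was above every BY4741, RM11-1a and W303 library. MRPS17 rose by 1.82 in D273-10B against BY4741 (SE 0.361, edgeR adjusted p 0.00281), and it fell by 1.19 in RM11-1a (SE 0.354, edgeR adjusted p 0.0246) and by 1.34 in W303 (SE 0.356, edgeR adjusted p 0.0225) against D273-10B. The RM11-1a call was lost without the library labelled RM11-1a replicate 2 (-1.15, edgeR adjusted p 0.0526), and in 5 of 30 alternatives in all, among them the fits without RM11-1a replicates 1 or 4 or D273-10B replicate 3 (up to 0.0935). The W303 call was lost in 5 of 31, among them the fits without W303 replicates 2 to 4 or D273-10B replicate 3 (up to 0.0844). MRP21 encodes bS21m (YBL090W, chromosome II, 48825 to 49358, plus strand). BY4741 had 22.3, 31.3, 40 and 35.8 CPM, D273-10B 50.2, 99.3, 130 and 89.5 CPM and CEN.PK2 69.9, 65.8, 70 and 97.1 CPM. RM11-1a had 58.8, 46.9, 100 and 60 CPM and W303 63.4, 55.5, 65.3 and 68.6 CPM. All 16 libraries of the other strains were above the highest BY4741 library. The rise was 1.51 in D273-10B (SE 0.301, edgeR adjusted p 0.00291), 1.22 in CEN.PK2 (SE 0.300, edgeR adjusted p 0.0191) and 1.04 in RM11-1a (SE 0.298, edgeR adjusted p 0.0453). The RM11-1a call was lost in 23 of 31 alternatives, with adjusted p from 0.0153 to 0.556. The CEN.PK2 call was lost in 3 of 31, among them the fits without BY4741 replicate 1 or CEN.PK2 replicate 4 (up to 0.131).

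MRPS35 encodes mS45, a mitochondria-specific protein of the small subunit (YGR165W, chromosome VII, 829116 to 830153, plus strand). BY4741 had 11.5, 16.8, 18.2 and 19.8 CPM, RM11-1a 45.7, 25.7, 50.6 and 43.1 CPM and D273-10B 56.2, 37.3, 27.7 and 37.8 CPM. CEN.PK2 had 42.6, 42.1, 29.9 and 12 CPM and W303 43.4, 36.7, 43.7 and 31.3 CPM. RM11-1a, D273-10B and W303 lay above BY4741 without overlap, and CEN.PK2 replicate 4 fell inside the BY4741 range. MRPS35 rose by 1.26 in D273-10B (SE 0.346, edgeR adjusted p 0.0202) and by 1.31 in RM11-1a (SE 0.346, edgeR adjusted p 0.0299), the former lost without BY4741 replicates 1 or 2 (up to 0.0651) and the latter in 9 of 31 alternatives.

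Of the 44 calls of named members over the pairs of strains, 11 were kept in every alternative and 15 in every fit that left out 1 library. The 11 were the rises of MRPL15, MRPL16, MRPL24, MRPL31, MRPL32, MNP1, MRP2, MRP21 and MRPS17 in D273-10B against BY4741 and the falls of MRPL15 in RM11-1a and W303 against D273-10B. The other 33 were lost in 1 to 23 alternatives, and none turned its direction. Leaving out BY4741 replicates 1 to 4 in turn ended 16, 14, 6 and 11 of the 44 calls. For D273-10B replicates 1 to 4 these numbers were 0, 7, 14 and 13, for CEN.PK2 8, 3, 6 and 2, and for W303 7, 9, 12 and 11. For RM11-1a they were 9, 3, 9 and 10, the 3 being without the library labelled RM11-1a replicate 2.

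Per kilobase of coding sequence, the mean level over the 20 libraries was highest for MRPL33 (uL30m; YMR286W, chromosome XIII, 841942 to 842202, plus strand), at 739 CPM per kilobase, followed by MRPL37 (mL54; YBR268W, chromosome II, 741299 to 741616, plus strand) at 692 and MRP2 at 510. MRPL33 had 93.9, 100, 156 and 123 CPM in BY4741 and 76.4, 248, 541 and 468 CPM in D273-10B. In CEN.PK2 it had 136, 95.2, 151 and 361 CPM, in RM11-1a 177, 159, 240 and 177 CPM and in W303 146, 136, 113 and 161 CPM. D273-10B replicate 1 was below every BY4741 library and replicates 2 to 4 were above them, and the rise in D273-10B was 1.49 (SE 0.461, edgeR adjusted p 0.035). It was lost in 8 of 31 alternatives, with adjusted p from 0.00259 to 0.139, as 7 of 20 fits that left out 1 library ended the call. These were the fits without any 1 of the 4 BY4741 libraries or D273-10B replicates 2 to 4. MRPL37 had 106, 131, 194 and 149 CPM in BY4741 and 99.2, 282, 394 and 432 CPM in D273-10B. CEN.PK2 had 181, 185, 170 and 416 CPM, RM11-1a 175, 207, 300 and 216 CPM and W303 166, 157, 184 and 259 CPM. MRPL37 was called in no pair of strains, with a log2 difference of 1.06 between D273-10B and BY4741 (edgeR adjusted p 0.0746).

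The lowest mean levels per kilobase were those of MRPL38 (uL14m; YKL170W, chromosome XI, 130634 to 131050, plus strand), at 28.2 CPM per kilobase, MRPS35 at 32.4 and MRPL4 (uL29m; YLR439W, chromosome XII, 1014491 to 1015450, plus strand) at 42.6. MRPL38 had 8.68, 8.4, 8.36 and 6.59 CPM in BY4741 and 7.52, 12.5, 25.6 and 17.1 CPM in D273-10B. CEN.PK2 had 9.86, 12.1, 10.8 and 17.2 CPM, RM11-1a 15, 7.18, 18.4 and 13.9 CPM and W303 9.93, 8.72, 8.11 and 9.01 CPM. CEN.PK2 lay above BY4741 without overlap, the other pairs of strains overlapped, and no pair was called. MRPL4 had 77.4, 26, 7.75 and 13.9 CPM in D273-10B and 20.5, 20.6, 14.9 and 24.1 CPM in BY4741. CEN.PK2 had 69.5, 99.6, 27 and 17.6 CPM, RM11-1a 26.9, 15.5, 29.3 and 39 CPM and W303 49.4, 59.4, 83.3 and 97 CPM. The W303 libraries lay above those of BY4741 and RM11-1a, but the test for any difference did not call MRPL4 (edgeR adjusted p 0.0732). With the length correction it was called in W303 against BY4741, at 2.02 on the log2 scale (SE 0.56, edgeR adjusted p 0.0378).

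MRPS12 (YNR036C, chromosome XIV, 694361 to 694822, minus strand), which encodes uS12m of the decoding centre, was singled out after its values were seen, since its highest libraries came from more than 1 strain. It had 19.8, 21.8, 1.672 and 14.6 CPM in BY4741, 14.1, 202, 11.6 and 22 CPM in CEN.PK2 and 18.3, 48.5, 260 and 256 CPM in W303. D273-10B had 48.9, 26.7, 19.3 and 42.1 CPM and RM11-1a 8.3, 4.02, 25.7 and 42.7 CPM. The 3 libraries at 202 CPM or above carry the consecutive library numbers 6986, 6987 and 6988 and come from CEN.PK2 and W303, and the other 17 were at 48.9 CPM or below. The test for any difference called it (edgeR adjusted p 0.0451), and no pair of strains did, the largest estimate being 3.35 on the log2 scale (SE 1.02, edgeR adjusted p 0.101) for W303 against BY4741. The part of the library number in this was not tested.

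Without the length correction the smallest departures were in MRPL35 (mL38), MRPS18 (uS11m), MRP4 (uS2m) and MRPL3 (mL44), whose log2 fold changes of D273-10B against BY4741 were 0.17, 0.21, 0.28 and 0.35. Their edgeR adjusted p-values were 0.775, 0.627, 0.733 and 0.517. With the correction their values were 0.62, 0.03, 0.61 and 0.81, MRPL3 being called (edgeR adjusted p 0.0245). The smallest were then MRPS18, MRPL37 (0.36), MRPL38 (0.37), MRPL44 (0.47) and MRPL6 (0.47). MRP4 was the member that went the other way in RM11-1a, with all 4 libraries (18.6, 41.9, 18.4 and 35.5 CPM) below those of BY4741 (45.9, 57.3, 47 and 53.8 CPM). Its log2 difference there was -0.83 and was not called. MRP4, MRPL19 and MRPL51 overlap another annotated gene, and since strand-specific counting is not given in the sources used here, their counts are uncertain. No member shared a 75-base window with another place in the genome.

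CEN.PK2 had more message than BY4741 for 53 of the 54 members (52.6% of all genes tested were above), with a median log2 fold change of 0.74 against 0.05 over all genes tested. By edgeR's quasi-likelihood test with Benjamini-Hochberg adjustment 7 rose (4.15% of all genes tested were called higher) and none fell. They were MRPL11, MRPL17, MRPL19, MRPL23, MRPL36, MNP1 and MRP21. The CEN.PK2 libraries were wholly above BY4741 for 20 members, where 8.89% of all genes were. Calls numbered 1, 2 and 3 without BY4741 replicates 1, 2 and 4, 3 without CEN.PK2 replicate 1 and 12 without D273-10B replicate 1. Among libraries numbered from 69 none was called, though the median was 0.76. With the length correction 16 were called higher with a median of 0.51, where 4.98% of all genes tested were called higher.

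RM11-1a was above BY4741 for 53 members (45.3% of all genes tested were above), with a median of 0.68 against -0.06 over all genes tested, and 8 rose (3.66% of all genes tested were called higher). They were MRPL16, MRPL17, MRPL19, MRPL27, MRPL36, MNP1, MRP21 and MRPS35. Without overlap, 38 members were higher in all 4 RM11-1a libraries, where 9.1% of all genes were, and 1 was lower, where 6.52% of all genes were. When the library labelled RM11-1a replicate 2 (against its genotype label at HO) was left out, 12 members were called with a median of 0.77 and 52 above BY4741. The 8 were among the 12, with log2 fold changes of 1.01 to 1.61 and edgeR adjusted p from 0.00478 to 0.0301. Without overlap 40 members were then higher, where 14.4% of all genes were, and 1 lower, where 13.7% were. Leaving out BY4741 replicates 1, 2, 3 and 4 in turn left 0, 1, 5 and 2 calls. Without RM11-1a replicates 1, 3 and 4 the calls numbered 2, 0 and 2, without W303 replicate 3 there were 4, and without D273-10B replicate 1 there were 12. With the library series as an added term 0 were called with a median of 0.58, and among libraries numbered from 66 alone 0 were called with a median of 0.43. The RM11-1a libraries numbered from 66 are replicate 1 and the library labelled RM11-1a replicate 2. Neither of these fits was run without the latter, so they cannot separate the library series from that library. The length correction gave 10 calls, all higher, with a median of 0.45, where 4.62% of all genes tested were called higher. The 2 remaining RM11-1a libraries are numbered from 74, a series with no BY4741 library.

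W303 was above BY4741 for 48 members (53% of all genes tested were above), with a median of 0.41 against 0.05 over all genes tested, and MNP1 alone rose (1.31% of all genes tested were called higher). At an unadjusted p under 0.05 there were 10 members, a count for which no share over all genes tested is given here. W303 lay above BY4741 without overlap for 15 members, where 9.67% of all genes did. In 13 of 20 fits without 1 library the MNP1 call was lost, while without CEN.PK2 replicates 2 and 4 there were 2 and 3 calls and without D273-10B replicate 1 there were 2. In the libraries numbered from 66 and in those numbered from 69 the count was 0, with medians of 0.29 and 0.59. With the length correction 15 members were called higher, with a median of 0.55, where 3.58% of all genes tested were called higher.

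Among the strains other than BY4741, D273-10B had the highest mean for most members. Without the length correction its calls were well above the share over all genes only in the comparison with W303. With the correction they were above that share against RM11-1a and CEN.PK2 as well. W303 was below D273-10B for 49 members and above it for 5 (47.1% of all genes tested were above), with a median of -0.63 against -0.06 over all genes tested, and 12 fell (7.29% of all genes tested were called lower). They were MRPL8, MRPL10, MRPL15, MRPL16, MRPL20, MRPL24, MRPL31, MRPL32, MRPL50, MRP2, MRP17 and MRPS17, of which 9 belong to the large subunit. The call of MRPL24, whose W303 and D273-10B libraries overlapped, was lost in 19 of 31 alternatives. Those of MRPL8 and MRPL32 were lost in 8 and 7 of 31. The W303 libraries were all below those of D273-10B for 6 members, where 5.15% of all genes were. Calls numbered 32 without D273-10B replicate 1, 2 and 4 without D273-10B replicates 3 and 4, and 6, 3, 2 and 2 without W303 replicates 1 to 4. In the libraries numbered from 69 there were 20 calls, 18 lower and 2 higher. With the length correction there were 12, all lower, with a median of -0.31. In that fit 13.3% of all genes tested were called in either direction and 5.05% were called higher.

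RM11-1a was below D273-10B for 47 members and above it for 7 (40.6% of all genes tested were above), with a median of -0.33 against -0.18 over all genes tested, and MRPL15, MRPL31 and MRPS17 fell (11.5% of all genes tested were called lower). These 3 are 5.56% of the members, a smaller share than over all genes. The libraries did not overlap for 2 members, both lower in RM11-1a, where 7.52% of all genes were lower in this way. The count was 11 without D273-10B replicate 1 and 1 without D273-10B replicate 3, RM11-1a replicate 1, the library labelled RM11-1a replicate 2 or RM11-1a replicate 4. Leaving out the library labelled RM11-1a replicate 2, the median was -0.22, against -0.21 over all genes tested, 12 members were above D273-10B and MRPL15 alone was called. In that case 3 members lay lower without overlap, where 11% of all genes did. With the length correction 17 fell, where 19.9% of all genes tested were called in either direction and 8.45% were called higher. D273-10B was above CEN.PK2 for 45 members (57.8% of all genes tested were above), with a median of 0.31 against 0.12 over all genes tested and rises of MRPL15 and MRP2 (2.94% of all genes tested were called higher). These 2 are 3.7% of the members, near the share over all genes, and 0 members lay above or below CEN.PK2 without overlap. The count of calls was 9 without D273-10B replicate 1, 1 without D273-10B replicate 2 and 0 without any 1 of CEN.PK2 replicates 1 to 3 or D273-10B replicates 3 and 4. Libraries numbered from 69 gave 5. With the length correction 8 members were called higher, where 5.16% of all genes tested were.

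The 3 remaining pairs showed few calls. For their counts at an unadjusted p no share over all genes tested is given here. RM11-1a against CEN.PK2 had 0 members called by edgeR (6.93% of all genes tested were called), 1 at an unadjusted p under 0.05 and 0 by DESeq2, and a median of -0.01. It had 27 members above and 27 below (45.5% of all genes tested were above), and 1 member lay below without overlap, where 7.29% of all genes did. Without CEN.PK2 replicate 4 there was 1 call. Without the library labelled RM11-1a replicate 2 there were 0 calls, 2 at an unadjusted p under 0.05, a median of 0.065 and 32 members above; 2 members lay above without overlap, where 8.12% of all genes did, and 1 below, where 10.2% did. The length correction left 1 called higher and 2 lower, where 13% of all genes tested were called in either direction and 6.85% were called higher. W303 against CEN.PK2 had 0 members called by edgeR (2.63% of all genes tested were called), 7 at an unadjusted p under 0.05 and 2 by DESeq2. Its median was -0.35, with 13 members above (48.8% of all genes tested were above), and 10 lay below without overlap, where 6.8% of all genes did. Before scaling, the members' shares of raw counts had means of 0.612% in W303 and 0.606% in CEN.PK2. Without CEN.PK2 replicate 2 and without D273-10B replicate 1 there was 1 call each. W303 against RM11-1a had 1 member called lower, MRPL16 (5.03% of all genes tested were called lower), and a median of -0.31, with 8 members above (52.9% of all genes tested were above). Without overlap, 14 members were lower and 2 higher in W303, where 12.3% of all genes were lower and 15.8% higher. That call was lost without RM11-1a replicates 3 or 4 or W303 replicates 1 to 4, and the count was 2 without CEN.PK2 replicates 2 or 4, D273-10B replicate 3 or the library labelled RM11-1a replicate 2, and 4 without D273-10B replicate 1. Without the library labelled RM11-1a replicate 2 MRPL16 was called lower (-1.06, edgeR adjusted p 0.018) and MRP4 higher (1.73, edgeR adjusted p 0.0391), and the median was -0.38 with 6 members above. Without overlap 23 were then lower, where 16% of all genes were, and 2 higher, where 20.3% were. With the length correction the call of MRPL16 was lost (edgeR adjusted p 0.0789) and MRP4 was called higher (1.53, edgeR adjusted p 0.00797). In both W303 pairs the length correction turned the sign of the median, to 0.12 against CEN.PK2 and 0.12 against RM11-1a, so the order of W303 and these strains depends on it.

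**Figure D5:**
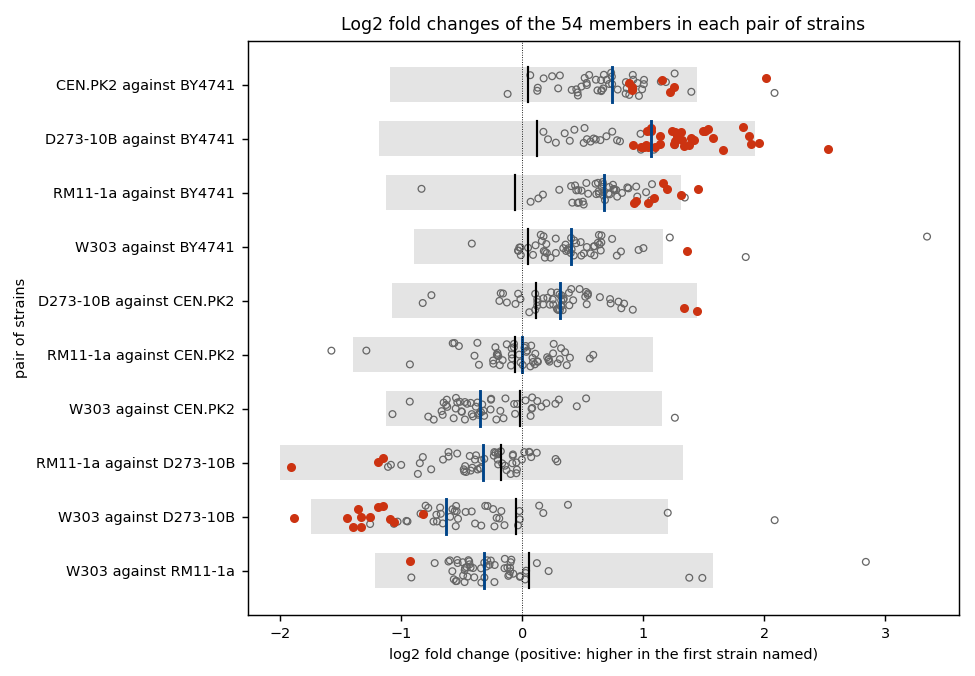
Log2 fold change (x axis, positive where the first strain named is higher) of the 54 members in each of the 10 pairs of strains (y axis), with filled red points for members called at an adjusted p under 0.05 and open points for the rest. Long blue lines mark the members' median, black lines the median of all genes tested, and grey bands the range from percentile 5 to percentile 95 of all genes tested. In the 4 pairs with BY4741 the blue line lies to the right of the black line, and by most in D273-10B.

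All members carry the element printed above in the RefSeq R64 genome, so its presence could not separate them. Whether each site is intact in the 5 strains was not examined. Members were grouped by the spelling of the site nearest the stop codon, and the spelling of any further site was not read. Those spelled TGTAAATA (29) had a median log2 fold change of 1.06 in D273-10B against BY4741 with 14 called. The 25 with another letter had a median of 1.09 with 18 called. Among genes that are not members, the 779 with an element had a median of 0.19 with 12.3% called higher, and the 4915 without one had a median of 0.08 with 8.77% called higher. PUF3 itself was not called in any pair. Its levels were 13.4 to 49.3 CPM in BY4741 and 5.09 to 35.3 CPM in D273-10B, which overlapped, and the test for any difference gave an edgeR adjusted p of 0.475. MKT1, whose alleles have been linked to the levels of Puf3 targets in yeast crosses, gave an edgeR adjusted p of 0.339, with 7.19 to 22 CPM in BY4741 and 10 to 26.3 CPM in D273-10B.

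Other genes of mitochondrial translation were read from the same fit. Of 24 further mitochondrial ribosomal proteins, among them MRP10, MRP35 and the RSM, IMG and MHR families, 6 rose in D273-10B against BY4741 (10.1% of all genes tested were called higher). Their median was 0.89 against 0.13 over all genes tested, with 23 above 0. RSM25 (mS23) had 12.1 to 25.2 CPM in BY4741 and 46.8 to 73.5 CPM in D273-10B, without overlap, a rise of 1.498 on the log2 scale (SE 0.302, edgeR adjusted p 0.0031). It also rose in CEN.PK2 (1.74, SE 0.304, edgeR adjusted p 0.00162) and RM11-1a (1.76, SE 0.303, edgeR adjusted p 0.00256), where the value without the library labelled RM11-1a replicate 2 was 1.99 (edgeR adjusted p 3.99e-05). RSM7 (uS7m) went from 39.1 to 48.5 CPM in BY4741 to 79 to 121 CPM in D273-10B, a rise of 1.10 (SE 0.260, edgeR adjusted p 0.00835), and it rose in CEN.PK2 and RM11-1a as well, in RM11-1a also without that library (edgeR adjusted p 0.0169). Among 7 translation factors 3 rose, again beside 10.1% of all genes, with a median of 0.97 and 6 above 0. The factor below 0 was TUF1, the mitochondrial elongation factor Tu, at -0.29 (edgeR adjusted p 0.718), and MRF1, a release factor, had 0.13 (edgeR adjusted p 0.805). MEF1, the elongation factor G of mitochondria, had 13.3 ± 3.58 CPM in BY4741, 23.8 ± 7.51 in RM11-1a, 46.8 ± 12.1 in W303, 56.5 ± 16.8 in CEN.PK2 and 103 ± 51.4 in D273-10B (SD, n = 4 each). Its rise in D273-10B was 2.95 (SE 0.378, edgeR adjusted p 3.3e-05), larger than that of any member in this pair, and it also rose in CEN.PK2 and W303. IFM1, the mitochondrial initiation factor 2, rose by 1.34 in D273-10B (SE 0.254, edgeR adjusted p 0.00197) and 1.21 in CEN.PK2 (SE 0.255, edgeR adjusted p 0.00721).

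Translational activators, which act on single mitochondrial messages, had 4 of 16 called higher in D273-10B against BY4741, beside 10.1% of all genes tested, with a median of 0.42 and 10 above 0. CBP6, needed for translation of cytochrome b, rose by 1.73 in D273-10B (SE 0.348, edgeR adjusted p 0.0031), 1.23 in CEN.PK2 (SE 0.344, edgeR adjusted p 0.0371) and 1.62 in RM11-1a (SE 0.347, edgeR adjusted p 0.00897). That RM11-1a rise was 1.83 (edgeR adjusted p 0.000857) once the library labelled RM11-1a replicate 2 was left out. SOV1, needed for expression of VAR1, rose by 1.39 in D273-10B (SE 0.277, edgeR adjusted p 0.00282). Of 7 assembly factors 1 was called higher in D273-10B, MSS116, an RNA helicase of mitochondria, a share near the 10.1% of all genes. MRH4, a helicase needed for large subunit assembly, fell by 1.29 in RM11-1a against D273-10B (SE 0.322, edgeR adjusted p 0.00951; 0.0199 without the library labelled RM11-1a replicate 2), and MRM2, a methyltransferase of the large ribosomal RNA, was called in no pair. Of 13 mitochondrial aminoacyl-tRNA synthetases 0 were called in D273-10B against BY4741 by edgeR, 6 at an unadjusted p under 0.05 and 1 by DESeq2, with a median of 0.68 and all 13 above 0. The share of all genes tested at that unadjusted p is not given here. ISM1 and MSW1, the isoleucine and tryptophan enzymes, fell in RM11-1a (by 1.07 and 0.95) and W303 (by 1.26 and 0.99) against D273-10B, with edgeR adjusted p-values of 0.032, 0.0399, 0.0232 and 0.0472. When the library labelled RM11-1a replicate 2 was left out, the RM11-1a call of ISM1 was lost (-0.93, edgeR adjusted p 0.082) and that of MSW1 was kept (-1.09, edgeR adjusted p 0.0339). VAR1, the ribosomal protein gene of mitochondrial DNA, had 0 to 8 counts per library and was removed by the filter on low counts.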

How the data were processed

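The authors deposited raw counts of reads per gene, with no normalization, in 1 table of 7127 genes and 20 libraries. The submitters' processing notes name STAR and Salmon, with no role. The roles of these tools, the genome build and the use of strand are not given in the sources used here, and the gene identifiers are those of an Ensembl release, per the file header. Every column was used. In 2 RM11-1a columns the header and the sample title give different replicate numbers; titles were used. The labels do not say that libraries came from separate cultures, so p-values measure the spread between these libraries, which may be technical.

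The test was edgeR 4.0.16 (R 4.3.3). After filterByExpr 6119 genes remained, TMM gave the size factors, and a quasi-likelihood model of strain alone took in all 20 libraries, with 15 residual degrees of freedom. Adjusted p-values are Benjamini-Hochberg values over the genes tested, with a threshold of 0.05. Each standard error (SE) is the log2 fold change divided by the square root of its F statistic. The length correction took each library's smooth trend on gene length (4 spline degrees of freedom), centred so that it does not rescale the library, as an offset. Other alternatives were DESeq2 1.42.0 as the test or for size factors, other filters, fits of 2 strains, replicate number or library series as a block, and leaving out each library. The fit was tested on simulated counts.

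Sequences, positions (1-based) and products come from RefSeq R64, to which 6047 genes were matched by systematic name. The members and gene lists were chosen with earlier results of these data known, so no list is independent support. Members given library by library were the 12 with the smallest adjusted p for any difference, the 3 largest called changes per pair and direction, and the 3 highest and 3 lowest levels per kilobase. For each other list the 2 genes with the smallest adjusted p for any difference are described, and the other genes named from these lists, as well as MRPS12, MRP4, MRPL3, MRPS18 and MRPL35, were chosen after their values were seen.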

Additional observations from a re-analysis of the deposited data

Results flagged for a closer look

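In 120 groups of 4 libraries of 1 strain, 5 held a library far from the other 3 by Dixon's criterion, where chance gives about 1 in 20 groups. MRPL37 stood at 416 CPM in CEN.PK2 replicate 4, with 170 to 185 CPM in the other CEN.PK2 libraries. In the same library MRP21 stood at 97.1 CPM, with 65.8 to 70 CPM in the others. MRPS12 stood at 202 CPM in CEN.PK2 replicate 2, with 11.6 to 22 CPM in the others. MRPL32 was low in BY4741 replicate 1, at 44.3 CPM against 55.8 to 57.5 CPM. MRPL38 was low in BY4741 replicate 4, at 6.59 CPM against 8.36 to 8.68 CPM.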

How the results depend on the processing

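Over all alternatives 0 of the 44 calls of named members turned direction, and 1119 of 1362 alternative values kept the call. The count of D273-10B against BY4741 stayed within 1.5 times of 32 except with only these 2 strains in the fit (13) and in the fits that left out 1 library (18 to 39). The cause of the changes below was not tested.

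With the length correction, members called numbered 43 for any difference, 16 in CEN.PK2 and 15 in W303 against BY4741, 8 in D273-10B, 3 in RM11-1a and 1 in W303 against CEN.PK2, and 17 in RM11-1a against D273-10B. With DESeq2 as the test there were 17 in CEN.PK2, 14 in RM11-1a and 5 in W303 against BY4741, 2 in W303 against CEN.PK2, 5 in RM11-1a and 19 in W303 against D273-10B, and 4 in W303 against RM11-1a. W303 against BY4741 had 0 with DESeq2 size factors, 0 with no filter and 2 with a filter at a mean of 10 CPM. That filter gave 12 in CEN.PK2 against BY4741 and 2 in W303 against RM11-1a. Fits of 2 strains gave 2 in CEN.PK2, 3 in RM11-1a and 7 in W303 against BY4741, 0 in D273-10B against CEN.PK2, 1 in RM11-1a and 1 in W303 against D273-10B, and 5 in W303 against RM11-1a.

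With the library series as a block there were 0 in RM11-1a and 2 in W303 against BY4741, 1 in D273-10B against CEN.PK2 and 0 in W303 against RM11-1a. With that block and the length correction there were 43 for any difference, 20 in CEN.PK2, 3 in RM11-1a and 22 in W303 against BY4741, 11 in D273-10B, 3 in RM11-1a and 1 in W303 against CEN.PK2, 7 in RM11-1a against D273-10B and 0 in W303 against RM11-1a. Libraries numbered from 66, which include the library labelled RM11-1a replicate 2, gave 0 in RM11-1a and 0 in W303 against BY4741 and 0 in W303 against RM11-1a. Those numbered from 69 gave 0 in CEN.PK2 and 0 in W303 against BY4741, 5 in D273-10B against CEN.PK2 and 20 in W303 against D273-10B.

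The replicate numbers are shared by the strains. Deviations of same-numbered libraries had correlations of -0.356 to 0.382 (mean 0.005), and 4 of 20 libraries matched best with their own number, so the libraries were not treated as paired. With the replicate block there were 23 members called for any difference, 8 in CEN.PK2, 32 in D273-10B, 12 in RM11-1a and 1 in W303 against BY4741, 1 in D273-10B, 0 in RM11-1a and 0 in W303 against CEN.PK2, 3 in RM11-1a and 8 in W303 against D273-10B, and 2 in W303 against RM11-1a. The replicate block with the length correction gave 15 in CEN.PK2 and 13 in W303 against BY4741, 6 in D273-10B, 2 in RM11-1a and 1 in W303 against CEN.PK2, and 14 in RM11-1a and 6 in W303 against D273-10B.

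Leaving out each library in turn gave 14 to 42 members called for any difference. Against BY4741, CEN.PK2 ranged from 1 to 12, D273-10B from 18 to 39, RM11-1a from 0 to 12 and W303 from 0 to 3. Against CEN.PK2, D273-10B ranged from 0 to 9, RM11-1a from 0 to 1 and W303 from 0 to 1. Against D273-10B, RM11-1a ranged from 1 to 11 and W303 from 2 to 32, and in W303 against RM11-1a the range was 0 to 4. Of 309 medians 11 moved by more than 0.268, the SD of the libraries' median deviation within strains. Depth limits the lowest member values most, the lowest count in a library being 10.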
